A study of Mus musculus with 2 samples.

Results

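The VEGF family genes described here are 9 of the 31053 genes counted in endothelial cells of the mouse ileum, the last stretch of the small intestine. They were chosen by symbol, and each has 1 row in the matrices of both libraries. Vegfa, Vegfc and Pgf encode ligands. Flt1, Kdr and Flt4 encode the receptors VEGFR1, VEGFR2 and VEGFR3, Nrp1 and Nrp2 encode the neuropilin co-receptors, and Esm1 encodes endocan, a secreted proteoglycan that VEGF induces in endothelial cells. The study sorted cells that lacked EpCAM and CD45 and carried CD31, as PDPN-negative blood and PDPN-positive lymphatic endothelium, from wild-type male C57Bl/6 mice aged 8 weeks. It holds 2 droplet libraries with the same labels, library 1 and library 2, which form 1 untreated group. Every comparison is therefore between classes of cells present in both libraries.

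VEGF-A is the ligand of Flt1 and Kdr. Kdr carries most of its growth and permeability signal, while Flt1 binds it more tightly, signals weakly and also exists as a secreted decoy. Pgf binds Flt1 and not Kdr. VEGF-C acts on Flt4, the main receptor for lymphatic growth, and after processing also on Kdr. Nrp1 binds VEGF-A beside Kdr, and Nrp2 binds VEGF-C beside Flt4. In the small intestine, VEGF-A keeps the capillaries of the villi fenestrated and VEGF-C maintains the lacteals, the lymphatic vessels that take up fat.

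Cells were placed in classes by raw UMIs (unique molecular identifiers, 1 for each captured RNA molecule) of genes outside the family. Lymphatic cells had at least 5 UMIs of Mmrn1, Lyve1 and Prox1 together, and blood endothelial cells at least 5 of Cd34, Plvap and Esam. Among blood cells, arterial cells had at least 3 UMIs of Sema3g, Fbln5 and Stmn2, and venous cells at least 4 of Ackr1, Selp and Madcam1. The remaining blood cells were capillary and were split by whether Plvap exceeded Gpihbp1 and Aqp1 together (Plvap-high capillary) or did not (Gpihbp1/Aqp1 capillary). Library 1 gave 78 lymphatic, 124 arterial, 64 venous, 340 Plvap-high capillary and 140 Gpihbp1/Aqp1 capillary cells. Library 2 gave 990, 798, 262, 2319 and 729 cells of these classes. The blood class as a whole held 696 and 4279 cells, including 28 and 171 that met both the arterial and the venous gate and entered no subset.

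The names were checked against markers outside the gates. The 5 lymphatic markers Pdpn, Ccl21a, Reln, Maf and Fgl2 summed to 13651 and 13398 CPM (UMIs of a gene scaled to the total of the class) in lymphatic cells, against 41.5 and 46.7 CPM in blood cells, in library 1 and library 2. The 6 arterial markers summed to 1781 and 1818 CPM in arterial cells, against 874 and 954 CPM in Plvap-high capillary cells. The 5 venous markers summed to 3212 and 3146 CPM in venous cells, against 354 and 324 CPM in Plvap-high capillary cells. The 4 capillary markers Rgcc, Cd36, Car4 and Cd300lg summed to 2049 and 2125 CPM in Plvap-high capillary cells and 5306 and 5833 CPM in Gpihbp1/Aqp1 capillary cells, against 2158 and 2082 CPM in arterial cells. They did not set the Plvap-high cells apart from arterial cells, so the name stands for the rule, blood cells that met neither the arterial nor the venous gate. The 5 blood markers Ly6c1, Podxl, Emcn, Cd93 and Cldn5 summed to 2988.4 and 2944 CPM in lymphatic cells, against 5629.6 and 5987.8 CPM in blood cells. The lymphatic cells of library 2 were shallower than those of library 1 (medians of 2156 against 2894 UMIs). They held 68.9 CPM of Ly6c1, which had 0 UMIs in the lymphatic cells of library 1, while the blood markers together were not higher in library 2. The libraries shared 2 cell barcodes. Of 1026 and 6302 barcodes, 978 and 6067 passed the cell filters, with medians of 3371 and 3814 UMIs, and 201 and 716 of them met no gate. It is not stated whether each library is from its own mouse. The main fits removed the difference between libraries as a block. Their p-values therefore rest on how class differences varied between these 2 libraries, taken largely from all genes together, and that variation may be technical.

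In the GENCODE vM21 annotation of GRCm38 all 9 genes are protein-coding. Among the ligands, Vegfa (ENSMUSG00000023951) lies at chr17:46016993-46032369 on the minus strand, Vegfc (ENSMUSG00000031520) at chr8:54077606-54187096 on the plus strand and Pgf (ENSMUSG00000004791) at chr12:85166635-85177790 on the minus strand. Flt1 (ENSMUSG00000029648, chr5:147561604-147726011) and Kdr (ENSMUSG00000062960, chr5:75932827-75978458) are both on the minus strand, and Flt4 (ENSMUSG00000020357, chr11:49609263-49652739) is on the plus strand. Nrp1 (ENSMUSG00000025810, chr8:128358604-128503363), Nrp2 (ENSMUSG00000025969, chr1:62703285-62818695) and Esm1 (ENSMUSG00000042379, chr13:113209659-113218098) are on the plus strand. Counts are given per gene, so the membrane and secreted forms of Flt1 cannot be told apart. Reads were counted near the 3′ end of transcripts, and levels are compared between classes, not between genes.

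The sequences upstream of Flt1, Nrp1, Kdr and Esm1 are shown because these genes had their highest levels in the same class, the Plvap-high capillary cells. They are the bases before the RefSeq gene start on GRCm38.p6, read 5′ to 3′ on the gene's strand, with the ETS core GGAA, or TTCC where it is on the opposite strand, in capitals. The Nrp1 window lies within the GENCODE gene and outside its exons.
Flt1, chr5:147726012-147726261, minus strand: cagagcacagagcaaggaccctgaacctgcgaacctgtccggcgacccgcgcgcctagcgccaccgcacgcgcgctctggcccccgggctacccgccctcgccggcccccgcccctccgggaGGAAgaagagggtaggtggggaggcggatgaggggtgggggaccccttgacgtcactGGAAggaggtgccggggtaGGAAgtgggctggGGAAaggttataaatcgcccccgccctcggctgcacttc
Kdr, chr5:75978459-75978705, minus strand: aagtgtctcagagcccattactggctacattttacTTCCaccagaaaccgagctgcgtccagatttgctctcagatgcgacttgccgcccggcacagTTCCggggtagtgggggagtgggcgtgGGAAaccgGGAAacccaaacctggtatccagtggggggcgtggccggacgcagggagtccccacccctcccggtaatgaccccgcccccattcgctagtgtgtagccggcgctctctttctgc
Nrp1, chr8:128358823-128359072, plus strand: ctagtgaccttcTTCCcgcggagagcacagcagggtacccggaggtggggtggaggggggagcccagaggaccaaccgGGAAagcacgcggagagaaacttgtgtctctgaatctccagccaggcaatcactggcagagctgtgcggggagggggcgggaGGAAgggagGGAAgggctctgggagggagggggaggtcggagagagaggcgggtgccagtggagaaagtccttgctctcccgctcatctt
Esm1, chr13:113209409-113209658, plus strand: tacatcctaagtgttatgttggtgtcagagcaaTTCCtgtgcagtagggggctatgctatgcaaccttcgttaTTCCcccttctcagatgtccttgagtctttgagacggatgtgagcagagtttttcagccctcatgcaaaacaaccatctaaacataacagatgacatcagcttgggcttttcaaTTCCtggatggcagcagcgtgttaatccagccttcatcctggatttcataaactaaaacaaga
The core GGAA occurred 4 times upstream of Flt1, 4 of Kdr, 4 of Nrp1 and 3 of Esm1 on either strand, and 93.5% of 32851 RefSeq promoter windows held it. The letters TATAAA occurred 1 time, upstream of Flt1 (12.4% of all windows held them). With both strands searched, none of these 4 windows held the hypoxia element core ACGTG, which 16.6% of all windows held. Nor did they hold the GATA motif GATAA (22.6% of all windows) or the AP-1 motif TGANTCA (6.75%).

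Of the ligands, Vegfc was an arterial and venous transcript, Pgf a lymphatic one, and Vegfa was highest in arterial and Plvap-high capillary cells. Vegfa stood at 52.4 and 53.8 CPM in arterial cells and at 43.4 and 36.7 CPM in Plvap-high capillary cells of library 1 and library 2. It was lower in lymphatic cells (19.7 and 18.8 CPM), venous cells (15.9 and 23.2 CPM) and Gpihbp1/Aqp1 capillary cells (17.3 and 14.2 CPM). The venous values overlapped both the lymphatic and the Gpihbp1/Aqp1 capillary values, while the arterial and Plvap-high values lay above all others in both libraries. Arterial cells were above Plvap-high capillary cells in each library, but this step did not pass (log2 0.44 ± 0.18, adjusted p = 0.12 by edgeR). Vegfa rested on few molecules, from 5 UMIs in the lymphatic and in the venous cells of library 1 to 380 in the Plvap-high cells of library 2.

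Vegfc was highest in arterial cells, with 173 and 217 CPM, followed by venous cells with 82.8 and 122 CPM. The Gpihbp1/Aqp1 capillary cells had 17.3 and 36.3 CPM and the Plvap-high capillary cells 15.5 and 15.6 CPM. The lymphatic cells had 0 UMIs in library 1 (3 counts, the limit that a count of 0 allows, are 11.8 CPM) and 5.09 CPM in library 2. No class overlapped its neighbour in this order, and each step passed the quasi-likelihood test of edgeR (p-values adjusted over all genes by Benjamini and Hochberg), which is the test used throughout. In library 1, however, the capillary kinds had overlapping counting intervals (7.89 to 32.7 CPM on 9 UMIs, against 9.57 to 23.6 CPM). Under alternative settings the step between the capillary kinds was lost in 4 of 12. The arterial to venous step was lost in 3 of 13 and the Plvap-high capillary to lymphatic step in 1 of 12.

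Pgf, a ligand of Flt1, was at 106 and 109 CPM in lymphatic cells. It was at 1.81 and 3.57 CPM in arterial cells, 0 and 1.29 CPM in venous cells, 0 and 1.06 CPM in Plvap-high capillary cells and 5.75 and 6.59 CPM in Gpihbp1/Aqp1 capillary cells. Lymphatic cells stood far above every blood class. The venous and Plvap-high values overlapped, the others did not, and no step from one blood class to the next in the order of levels passed the test. With each cell thinned to 2000 UMIs and shallower cells left out, a Pgf UMI was found in 19.6% of lymphatic cells of library 1 (11 of 56, exact binomial 95% interval 10.2 to 32.4%) and 17.5% of library 2 (95 of 542, 14.4 to 21%). Unthinned, the shares were 24.4 and 20%. In Plvap-high capillary cells a Pgf UMI was found in 0 of 294 cells, which allows a share of cells with a UMI of up to 1.02% by the limit of 3 counts, and in 5 of 2181 cells (0.229%).

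The receptors divided the classes differently. Flt1 was at 3624 and 3543 CPM in Plvap-high capillary cells, 2735 and 2515 CPM in Gpihbp1/Aqp1 capillary cells, 2682 and 2683 CPM in arterial cells and 958 and 1321 CPM in venous cells. In lymphatic cells it was at 11.8 CPM (3 UMIs) in library 1 and 77.9 CPM (199 UMIs) in library 2. The blood classes lay far above the lymphatic cells in both libraries. The step between venous and lymphatic cells passed the test, while no step among the blood classes did in the fit of all 5 classes. The part of other cells' RNA in the lymphatic value of library 2 was not tested. Ly6c1 was also present in those cells. In the lymphatic cells of library 1 and library 2 the 4 capillary markers summed to 134 and 206 CPM and the 6 arterial markers to 232 and 316 CPM. The 5 blood markers summed to 2988.4 and 2944 CPM and the 5 venous markers to 1417 and 1321 CPM.

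Kdr was the receptor shared by both lineages. It was at 1580.0 and 1649 CPM in Plvap-high capillary cells, 1406 and 1302 CPM in lymphatic cells, 1315 and 1190 CPM in Gpihbp1/Aqp1 capillary cells, 909 and 961 CPM in arterial cells and 236 and 432 CPM in venous cells. Lymphatic and Gpihbp1/Aqp1 capillary values overlapped, and venous cells were lowest in both libraries. The steps from Plvap-high capillary to lymphatic cells (log2 0.39 ± 0.15) and from arterial to venous cells passed the test, and the others did not. The step from Plvap-high capillary to lymphatic cells was lost under 5 of 12 alternatives, with adjusted p = 0.21 in DESeq2 and 0.17 without the library block by edgeR. Thinned to 2000 UMIs, 87.5 and 89.7% of lymphatic cells had a Kdr UMI, against 39.7 and 48.2% of venous cells (unthinned, 94.9 and 87.9% against 57.8 and 73.7%).

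Flt4 was at 2059 and 1577 CPM in lymphatic cells and far lower in the blood classes. It was at 132 and 98.6 CPM in Gpihbp1/Aqp1 capillary cells, 113 and 99.4 CPM in Plvap-high capillary cells and 83.1 and 85.6 CPM in arterial cells. Venous cells had 6.37 CPM (2 UMIs) in library 1 and 37.3 CPM in library 2, below the other blood classes in both. The capillary kinds and the arterial cells followed each other in the order of levels without passing the test. Of lymphatic cells thinned to 2000 UMIs, 45 of 56 and 462 of 542 had UMIs of both Flt4 and Kdr.

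The co-receptors were opposite in lymphatic and venous cells, where Nrp1 was lowest and Nrp2 highest. Both fell from Plvap-high through Gpihbp1/Aqp1 capillary to arterial cells in each library. Nrp1 was at 1680.0 and 1752 CPM in Plvap-high capillary cells, 1336 and 1208 CPM in Gpihbp1/Aqp1 capillary cells, 788 and 771 CPM in arterial cells and 245 and 325 CPM in venous cells. Lymphatic cells had 0 Nrp1 UMIs in library 1 and 32.5 CPM in library 2. None of these classes overlapped another, and only the steps from arterial to venous and from venous to lymphatic cells passed in the fit of all 5 classes.

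Nrp2 was at 1071 and 925 CPM in lymphatic cells and at 357 and 301 CPM in venous cells. It was at 264 and 238 CPM in Plvap-high capillary cells, 245 and 199 CPM in Gpihbp1/Aqp1 capillary cells and 90.3 and 98.3 CPM in arterial cells. The capillary kinds overlapped, and arterial cells were lowest in both libraries. Each step in this order passed the test, though the step between the capillary kinds (adjusted p = 0.049 by edgeR) was lost under 8 of 12 alternatives.

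Esm1 marked the Plvap-high capillary cells, with 339 and 318 CPM. Arterial cells had 112 and 81.1 CPM, Gpihbp1/Aqp1 capillary cells 15.3 and 37.6 CPM, venous cells 0 and 16.1 CPM and lymphatic cells 3.94 and 4.70 CPM. The steps from Plvap-high capillary to arterial and from arterial to Gpihbp1/Aqp1 capillary cells passed the test, and the lower steps did not. Thinned to 2000 UMIs, 30.6 and 31.8% of Plvap-high capillary cells had an Esm1 UMI, against 2.31 and 4.13% of Gpihbp1/Aqp1 capillary cells (unthinned, 39.7 and 45.5% against 5 and 7.41%).

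**Figure D1:**
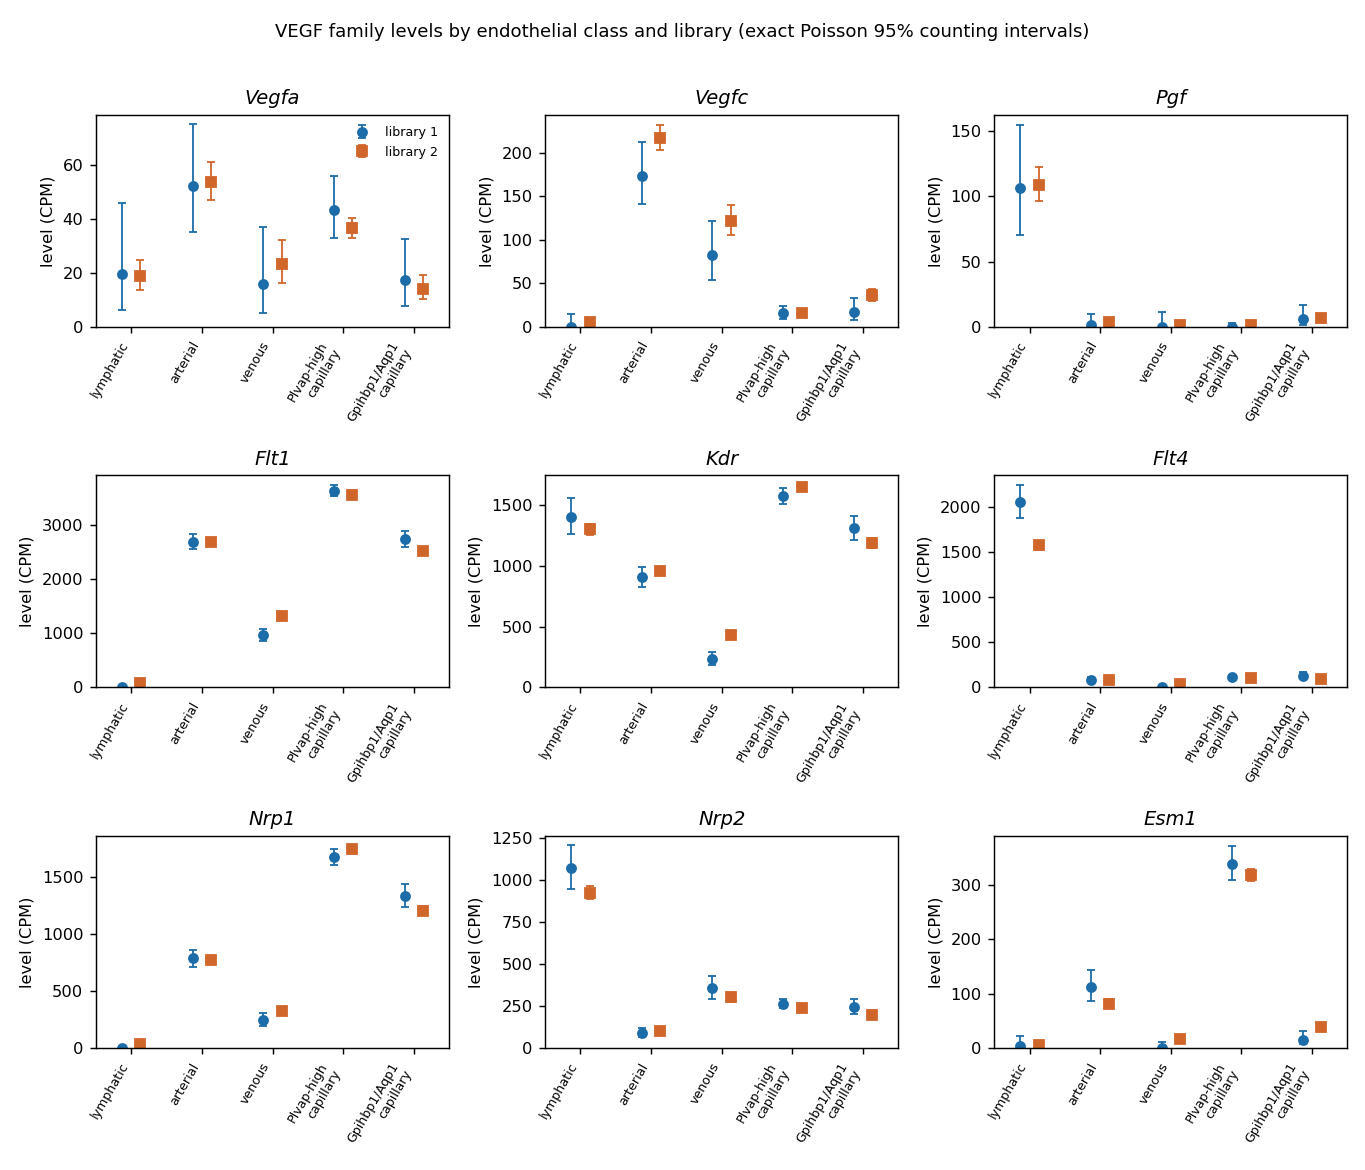
Level of each gene in CPM (vertical axis, from 0, with its own scale in each panel) in the 5 endothelial classes, with 1 point for each library and exact Poisson 95% counting intervals as bars. Flt4, Pgf and Nrp2 peak in lymphatic cells, Vegfc in arterial cells, and Flt1, Kdr, Nrp1 and Esm1 in Plvap-high capillary cells.

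The first comparison set the lymphatic against the blood endothelium. Lymphatic cells had more Pgf, Flt4 and Nrp2 and less Flt1, Nrp1, Esm1, Vegfc and Vegfa, so 8 of the 9 genes passed the test, 3 higher and 5 lower. In this comparison 47.4% of the 10957 genes tested passed, 22.3% higher and 25% lower. Flt4 was higher by 4.21 ± 0.15 on the log2 scale (SE; 2059 and 1577 CPM in lymphatic cells, against 93.2 and 87.6 CPM in blood cells; adjusted p = 7.0e-175). Pgf was higher by 5.49 ± 0.28 (106 and 109 CPM against 1.35 and 2.44 CPM), and Nrp2 by 2.05 ± 0.14 (1071 and 925 CPM against 242 and 211 CPM; adjusted p = 2.3e-47, edgeR). The p-values of this comparison come from a fit with 1 residual degree of freedom whose spread was taken almost wholly from all genes.

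Flt1 was lower in lymphatic cells by a fitted log2 difference of -5.63 ± 0.18 (blood cells 2799 and 2880 CPM) and Esm1 by -5.41 ± 0.30. Nrp1 had a fitted difference of -5.64 ± 0.20, and with 0 UMIs in the lymphatic cells of library 1 it was at least 101-fold lower there than in blood cells (1194 CPM), taking 3 counts over the class as the floor of 11.8 CPM. Vegfc was lower by -4.13 ± 0.33, and at least 5.2-fold lower in library 1 against the same floor.

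Vegfa had 19.7 and 18.8 CPM in lymphatic cells, against 36.1 and 35.2 CPM in blood cells, a difference of -1.0 ± 0.27 (adjusted p = 0.00092 by edgeR), which did not pass in DESeq2 (adjusted p = 0.20) or with equal numbers of cells a class (adjusted p = 0.30). Kdr had 1406 and 1302 CPM in lymphatic cells, against 1172 and 1261 CPM in blood cells, and did not pass (log2 0.06 ± 0.13, adjusted p = 0.73 by edgeR). Flt1 ceased to pass by edgeR when cells that met both gates were assigned to the lymphatic class (log2 -3.78, adjusted p = 0.17). Lymphatic cells had medians of 2894 and 2156 UMIs and 3.47 and 5.32% mitochondrial UMIs, against 3850.0 and 4326 UMIs and 2.33 and 2.65% in blood cells, and the part of these in the result was not tested. Markers of other cell types also differed, in library 1 and library 2: the 7 mural markers summed to 0 and 10.6 CPM in lymphatic cells, against 108 and 234 CPM in blood cells, and the 6 fibroblast markers to 3.94 and 32.9 CPM, against 30.7 and 309 CPM. The 5 erythroid markers summed to 0 and 6.66 CPM in lymphatic cells, against 2.70 and 507 CPM in blood cells, the 7 epithelial markers to 15.7 and 44.6 CPM, against 25.3 and 437 CPM, and the 7 leukocyte markers to 47.2 and 119 CPM, against 5.06 and 381 CPM. With cells that carried at least 3 UMIs of such markers left out, 8 of 9 genes passed, 3 higher and 5 lower.

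**Figure D2:**
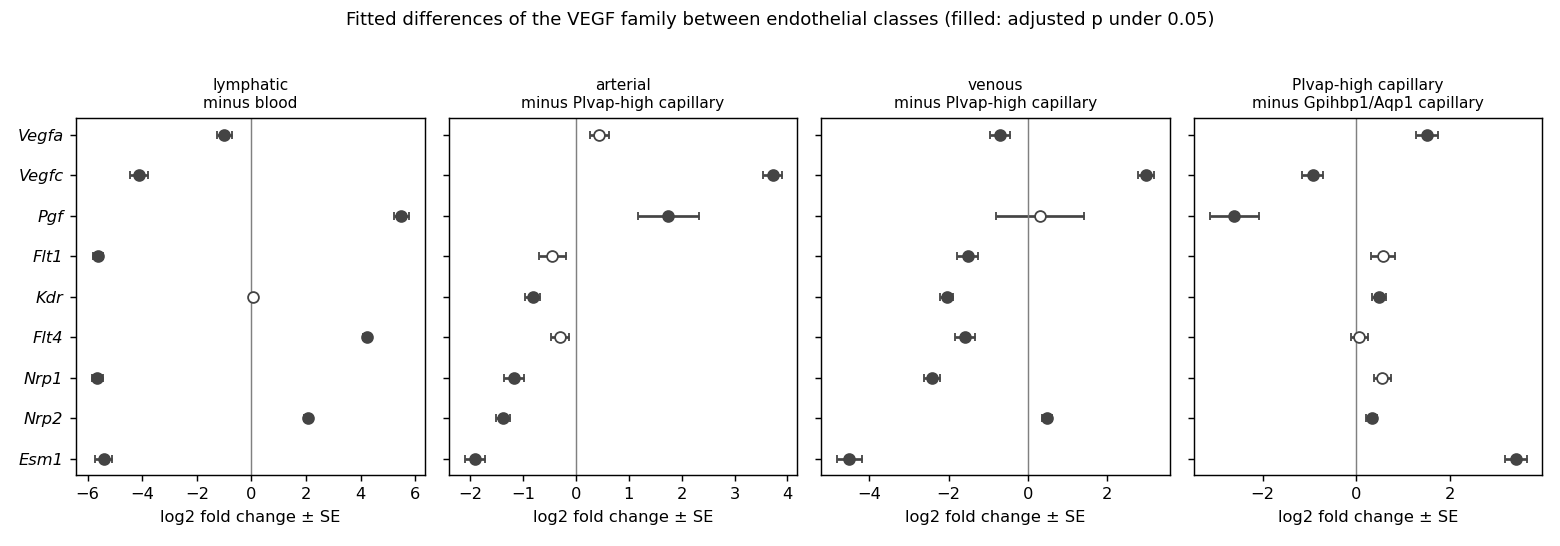
Fitted log2 fold change of each gene with its standard error (bars) in 4 comparisons, where a filled point has an adjusted p under 0.05 and the horizontal scale differs between panels. In the lymphatic comparison Kdr lies at 0.06 while Flt1 and Flt4 lie at -5.63 and 4.21.

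The second pair of comparisons set arterial cells against each capillary kind; the 2 share the arterial sums. Against Plvap-high capillary cells, Vegfc rose by 3.72 ± 0.17 on the log2 scale (173 and 217 CPM against 15.5 and 15.6 CPM, adjusted p = 8.7e-22) and Pgf by 1.75 ± 0.58 (1.81 and 3.57 CPM against 0 and 1.06 CPM). Esm1 changed by -1.92 ± 0.19, Nrp2 by -1.38 ± 0.13, Nrp1 by -1.18 ± 0.19 and Kdr by -0.82 ± 0.14. These are 6 of 9 genes, 2 higher and 4 lower, against 11.7% of 10606 genes tested (7.17% higher and 4.56% lower). Without the library block Nrp1 did not pass (adjusted p = 0.084 by edgeR), and in DESeq2 Esm1 did not (adjusted p = 0.27). The Pgf call rests on 1 and 15 UMIs in arterial cells and was lost under 7 of 12 alternatives, with its sign turned by thinning.

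Against Gpihbp1/Aqp1 capillary cells, Vegfc rose by 2.79 ± 0.18, Vegfa by 1.95 ± 0.24 (52.4 and 53.8 CPM against 17.3 and 14.2 CPM) and Esm1 by 1.5 ± 0.26, while Nrp2 changed by -1.04 ± 0.14. These are 4 of 9 genes, against 14.9% of all genes tested. Nrp1 missed the threshold (log2 -0.62 ± 0.19, adjusted p = 0.055 by edgeR) and passed under 11 of 13 alternatives. Flt1 differed by 0.12 ± 0.26 and did not pass. The 7 mural markers summed to 197 and 359 CPM in arterial cells, against 35.3 and 74.3 CPM in Plvap-high and 266 and 502 CPM in Gpihbp1/Aqp1 capillary cells. With cells that carried at least 3 UMIs of other cell types' markers left out, 5 of 9 genes passed against either capillary kind.

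A fit of the 4 blood classes alone was added after seeing the data. For arterial against Plvap-high capillary cells the standard errors were 0.11 for Flt1 and 0.10 for Nrp1 in it, against 0.26 and 0.19 in the fit of 5 classes. There Flt1 passed for arterial against Plvap-high capillary cells (log2 -0.45 ± 0.11, adjusted p = 0.0050 by edgeR) and for Plvap-high against Gpihbp1/Aqp1 capillary cells (0.57 ± 0.11, adjusted p = 0.00024). Nrp1 passed in the same comparisons (-1.17 ± 0.10 and 0.56 ± 0.10) and for arterial against Gpihbp1/Aqp1 capillary cells (-0.61 ± 0.11, adjusted p = 0.00012).

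Within the arterial class the genes varied with the strength of the arterial gate, which held none of them. From cells with 3 gate UMIs, through 4 to 5, to 6 or more, Vegfc was at 59.5, 91.9 and 258 CPM in library 1 and 94.5, 101 and 310 CPM in library 2. Nrp1 ran the other way, at 1045, 806 and 676 CPM in library 1 and 951, 906 and 649 CPM in library 2. The arterial connexin Gja4, outside the gate, ran at 263, 318 and 598 CPM in library 1 and 257, 344 and 614 CPM in library 2. The strata hold 29, 34 and 61 cells in library 1 and 183, 191 and 424 in library 2. A cell of more UMIs reaches a higher stratum more easily, and no test was made.

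Cells at the edge of the gate were frequent, with 37 and 246 cells at exactly 3 UMIs and 80 and 377 with 1 UMI fewer. With an arterial gate of 6 UMIs, chosen after seeing the data, Vegfc differed from Plvap-high capillary cells by 4.25 ± 0.18 and Vegfa passed (log2 0.82 ± 0.20, adjusted p = 0.0021 by edgeR). Against Gpihbp1/Aqp1 capillary cells, Esm1 no longer passed (0.68 ± 0.27, adjusted p = 0.11 by edgeR), while Kdr did (-0.61 ± 0.17, adjusted p = 0.014).

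**Figure D3:**
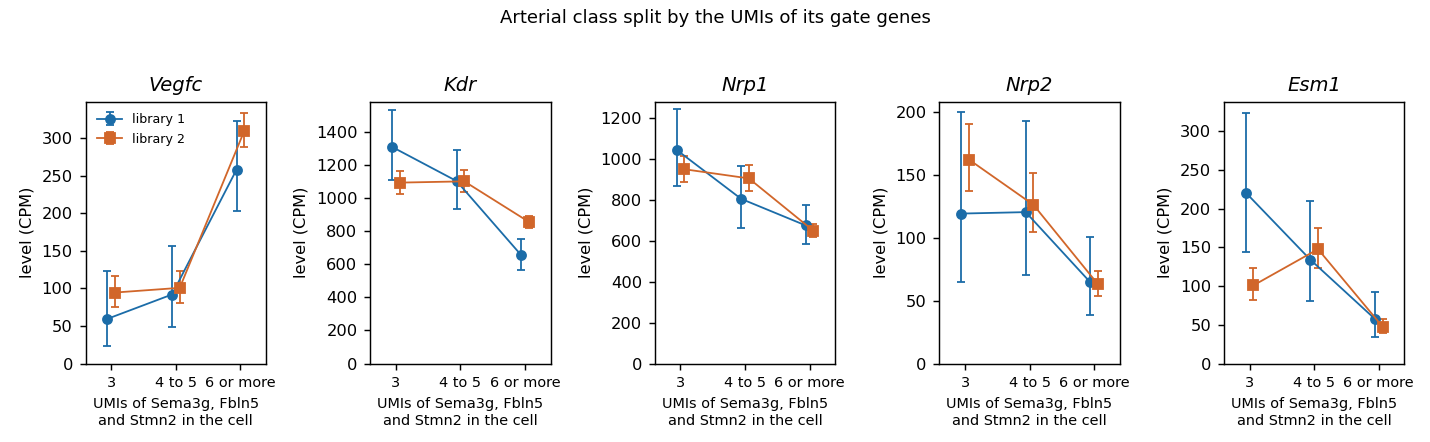
Level in CPM (vertical axis, from 0) of 5 genes in arterial cells split by the UMIs of the gate genes Sema3g, Fbln5 and Stmn2 (horizontal axis), with 1 line for each library and exact Poisson 95% counting intervals. Vegfc is at 258 and 310 CPM in cells with 6 or more gate UMIs, where Kdr, Nrp1, Nrp2 and Esm1 are at their lowest.

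The third pair set venous cells against the capillary kinds. Venous cells had less of every receptor and of Nrp1 than Plvap-high capillary cells, and more Vegfc and Nrp2. Of 9 genes, 8 passed, 2 higher and 6 lower, against 21.4% of 10606 genes (11.8% higher and 9.57% lower). Kdr had 236 and 432 CPM in venous cells, against 1580.0 and 1649 CPM in Plvap-high capillary cells (log2 -2.06 ± 0.16, adjusted p = 1.3e-09). Flt1 changed by -1.53 ± 0.27, Flt4 by -1.59 ± 0.25 and Nrp1 by -2.42 ± 0.21. Vegfc rose by 2.98 ± 0.20 and Nrp2 by 0.48 ± 0.13.

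Esm1 was at least 35.4-fold lower in the venous cells of library 1, which had 0 UMIs against a floor of 9.55 CPM, and its fitted difference was -4.50 ± 0.31. Vegfa changed by -0.70 ± 0.26 (adjusted p = 0.046 by edgeR), a call lost under 6 of 12 alternatives. The venous Flt4 value of library 1 rests on 2 UMIs in 64 cells.

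Against Gpihbp1/Aqp1 capillary cells 6 of 9 genes passed, where 25.5% of all genes did. Vegfc rose by 2.05 ± 0.21 and Nrp2 by 0.81 ± 0.14, while Nrp1 changed by -1.86 ± 0.22, Kdr by -1.56 ± 0.16 and Flt4 by -1.52 ± 0.27. Pgf passed with -2.30 ± 0.87 on 0 and 2 venous UMIs and was lost under 8 of 11 alternatives. Flt1 had 958 and 1321 CPM against 2735 and 2515 CPM and missed the threshold (-0.96 ± 0.27, adjusted p = 0.053 by edgeR), but passed in the fit of the 4 blood classes (adjusted p = 4.9e-07).

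Arterial cells were also set against venous cells. Of 9 genes, 8 passed, against 20.4% of genes tested, and 7 of the 8 were higher in arterial cells (9.53% of all genes were higher and 10.8% lower). Esm1 rose by 2.58 ± 0.37, Flt4 by 1.28 ± 0.27, Nrp1 by 1.25 ± 0.22, Kdr by 1.24 ± 0.16, Vegfa by 1.14 ± 0.26, Flt1 by 1.08 ± 0.27 and Vegfc by 0.74 ± 0.17. Nrp2 was the exception at -1.86 ± 0.14 (90.3 and 98.3 CPM in arterial cells, against 357 and 301 CPM in venous cells, adjusted p = 1.8e-14). Pgf did not pass. DESeq2 called 5 genes in place of 8, the calls for Flt1, Vegfc and Flt4 being lost. The 28 and 171 cells that met both the arterial and the venous gate were left out of this comparison. With cells of 2 gates assigned to a class, these counted as venous, which gave 92 and 433 venous cells. Then 7 genes passed, 6 higher and 1 lower.

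The capillary kinds differed most in Esm1. Plvap-high capillary cells had 339 and 318 CPM, against 15.3 and 37.6 CPM in Gpihbp1/Aqp1 capillary cells, a rise of 3.42 ± 0.23 on the log2 scale (adjusted p = 1.0e-09). Vegfa rose by 1.51 ± 0.24, Kdr by 0.49 ± 0.14 and Nrp2 by 0.33 ± 0.12 (a call lost under 8 of 12 alternatives), while Pgf changed by -2.60 ± 0.53 and Vegfc by -0.93 ± 0.22. These are 6 of 9 genes, 4 higher and 2 lower, where 22.2% of all genes passed (11.7% higher and 10.4% lower). The Pgf call rests on 3 and 20 UMIs in 2 and 6 Gpihbp1/Aqp1 capillary cells, against 0 and 11 UMIs in Plvap-high capillary cells. The Vegfc call was lost under 4 of 12 alternatives. Flt4 had 113 and 99.4 CPM against 132 and 98.6 CPM and did not pass (0.07 ± 0.18, adjusted p = 0.84 by edgeR).

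The smaller differences depended on the fit. Without the library as a block 3 genes passed in place of 6, with adjusted p = 0.16 for Kdr, 0.34 for Nrp2 and 0.074 for Vegfc by edgeR. In library 2 the 5 erythroid markers summed to 38.2 CPM in Plvap-high capillary cells, against 3271 CPM in Gpihbp1/Aqp1 capillary cells. In library 1 the erythroid sums were 3.68 CPM in Plvap-high and 1.92 CPM in Gpihbp1/Aqp1 capillary cells. The 7 epithelial markers summed to 15.5 and 819 CPM in Plvap-high cells of library 1 and library 2, against 30.7 and 28.0 CPM. The 6 fibroblast markers summed to 16.2 and 161 CPM in Plvap-high cells, against 99.7 and 664 CPM. With cells that carried other cell types' markers left out, 7 of 9 genes passed.

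Esm1-rich cells were compared with Esm1-negative cells inside the Plvap-high capillary class. Cells with at least 2 Esm1 UMIs numbered 75 and 627, and cells with 0 numbered 205 and 1265. Esm1 itself was not tested, and Pgf was too low to be tested. Cells with Esm1 had more Kdr and Nrp1 and less Vegfa and Vegfc, so 4 of 7 genes passed, 2 in each direction, where 3.29% of 9856 genes did (1.77% higher and 1.52% lower).

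Kdr had 2007 and 1931 CPM in cells with Esm1, against 1404 and 1461 CPM in cells without (log2 0.45 ± 0.06, adjusted p = 1.6e-10 by edgeR). Nrp1 had 2105 and 2110 CPM, against 1412 and 1506 CPM (0.52 ± 0.06, adjusted p = 1.2e-14 by edgeR). Both libraries lay higher in cells with Esm1, without overlap. As in the lymphatic comparison, the fit had 1 residual degree of freedom and its spread was taken almost wholly from all genes. Flt1 (0.12 ± 0.05), Flt4 (0.17 ± 0.13) and Nrp2 (0.17 ± 0.10) did not pass.

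Vegfa had 22.3 and 27.4 CPM in cells with Esm1, against 54.7 and 43.4 CPM in cells without (-0.75 ± 0.21, adjusted p = 0.014 by edgeR). Vegfc had 8.38 and 9.88 CPM, against 22.7 and 19.3 CPM (-1.02 ± 0.32, adjusted p = 0.042 by edgeR). Cells with Esm1 were deeper, with medians of 4712 and 4755 UMIs against 3470.0 and 3933. Thinned to 2000 UMIs, Kdr and Nrp1 still passed, and Vegfa (adjusted p = 0.60 by edgeR) and Vegfc (adjusted p = 0.87) did not. In the thinned fit the gates and the Esm1 cut were applied anew to thinned counts, which left 39 and 326 cells with Esm1. It therefore removed UMIs as well as the depth difference, and these cannot be told apart.

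In library 2 the 7 epithelial markers summed to 26.1 CPM in cells with Esm1, against 1566 CPM in cells without, where 1 cell held all 211 Epcam UMIs. In library 1 the sums were 8.38 and 21.4 CPM, with Epcam at 0 in both. The fibroblast markers summed to 32.8 CPM in cells with Esm1 of library 2, against 278 CPM in cells without. With cells that carried at least 3 UMIs of other cell types left out, Vegfa still passed and Vegfc did not (adjusted p = 0.052 by edgeR). Without the library block 0 of 7 genes passed by edgeR (4 at an unadjusted p under 0.05), with 18 genes passing in all, while DESeq2 with the block called Kdr and Nrp1.

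By thinned Esm1 UMIs of 0, 1 and 2 or more, Kdr was at 1446, 1925 and 2338 CPM in library 1 and 1549, 1821 and 2062 CPM in library 2. Nrp1 was at 1549, 1972 and 2243 CPM in library 1 and 1616, 2110 and 2182 CPM in library 2. Both genes were higher with more Esm1 in each library. Vegfa was at 44.1, 47.2 and 54.1 CPM in library 1 and 43.7, 26.5 and 15.8 CPM in library 2, so the libraries did not share a direction, and the value of 54.1 CPM rests on 4 UMIs.

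**Figure D4:**
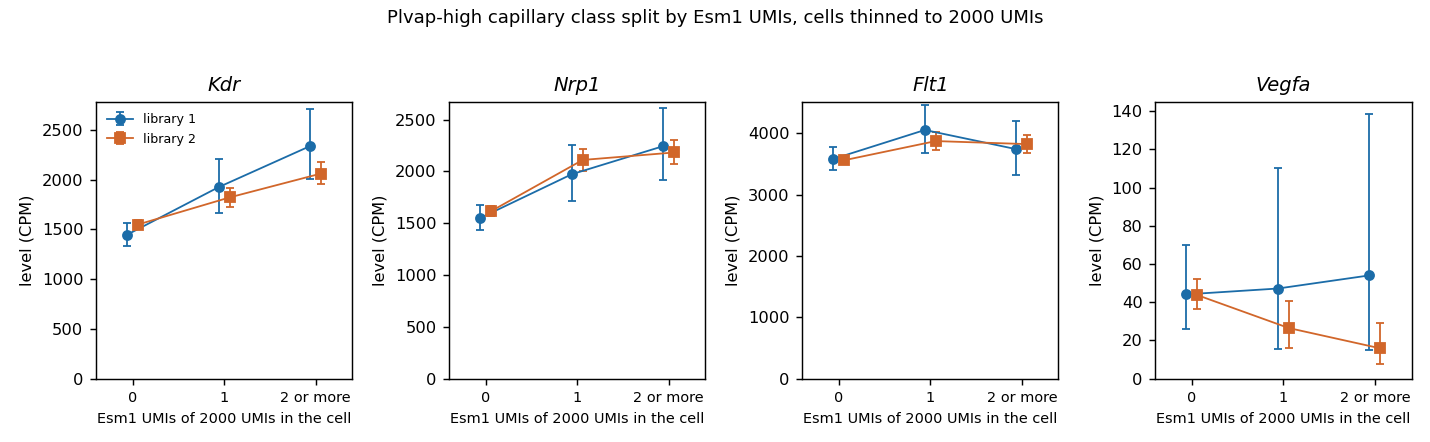
Level in CPM (vertical axis, from 0) of 4 genes in Plvap-high capillary cells split by Esm1 UMIs after thinning each cell to 2000 UMIs, with 1 line for each library and exact Poisson 95% counting intervals. Kdr is at 2338 and 2062 CPM in cells with 2 or more Esm1 UMIs and at 1446 and 1549 CPM in cells with 0, while Vegfa has no direction common to both libraries.

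Other genes of the pathway were counted as lists and read against the share of all genes that passed. Genes that VEGF induces or that mark sprouting tip cells were mostly lower in lymphatic than in blood cells, with 2 of 20 higher, 17 lower and a median log2 difference of -1.34, against -0.0031 over all genes. Of all genes tested, 22.3% were higher and 25% lower. Cxcr4, a chemokine receptor of tip cells, had 0 and 1.17 CPM in lymphatic cells, against 28.7 and 24.4 CPM in blood cells (fitted log2 -4.62 ± 0.53). The adrenomedullin co-receptor Ramp3 (-3.97 ± 0.43), the transcription factor Egr3 (-3.63 ± 0.27) and the Notch target Nrarp (-3.41 ± 0.25) were lower too. The 2 that were higher were Angpt2, a ligand of the Tie2 receptor (2.60 ± 0.20), and the actin bundler Fscn1 (2.44 ± 0.18). These 2 were named after their values were seen.

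The 19 genes of the dissociation and immediate early response tested were also lower in lymphatic cells, 16 of 19 and with a median of -2.04 (25% of all genes were lower), and their part in the VEGF-induced list was not tested. Socs3 was at 94.5 and 186 CPM in lymphatic cells, against 1394 and 1346 CPM in blood cells. Egr3 and Nr4a1 in the VEGF-induced list are themselves immediate early genes. The 19 genes also differed between blood classes. In Plvap-high against Gpihbp1/Aqp1 capillary cells 8 were higher and 0 lower (11.7 and 10.4% of all genes). In arterial cells 9 were higher and 0 lower than in Gpihbp1/Aqp1 capillary cells (14.9% of all genes passed). Against Plvap-high capillary cells 2 were higher and 2 lower in arterial cells. Their part in these comparisons was not tested.

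In venous cells, 12 of 20 VEGF-induced genes were lower and 3 higher than in Plvap-high capillary cells, with a median of -1.42 against -0.014 over all genes, of which 11.8% were higher and 9.57% lower. Rcan1, a feedback inhibitor of calcineurin that VEGF induces, went against the list at 726 and 750 CPM in venous cells, against 25.8 and 29.7 CPM in Plvap-high capillary cells (4.78 ± 0.15, adjusted p = 4.1e-29 by edgeR). The basement membrane gene Nid2 was at 0 and 10.9 CPM in venous cells, against 121 and 135 CPM (-3.75 ± 0.29). Igfbp3, which binds insulin-like growth factors, had 15.9 and 156 CPM in venous cells, against 1569 and 1531 CPM (-3.62 ± 0.57).

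In arterial cells the list was split, with 4 of 20 higher and 6 lower than in Plvap-high capillary cells (median -0.080 against -0.0051 over all genes, of which 7.17% were higher and 4.56% lower). DESeq2 called 6 of the 20 in place of 10, and thinned cells gave 4. Kcne3, a potassium channel subunit, was at 77.7 and 41.9 CPM in arterial cells, against 2.21 and 1.45 CPM (4.83 ± 0.32), and the laminin chain Lamb1 at 95.7 and 130.1 CPM, against 363 and 381 CPM (-1.73 ± 0.14). Between the capillary kinds 6 were higher and 6 lower, against 11.7 and 10.4% of all genes. Dusp5, a phosphatase of ERK, was at 61.8 and 47.3 CPM in Plvap-high capillary cells, against 13.4 and 7.91 CPM in Gpihbp1/Aqp1 capillary cells, and Fscn1 at 16.2 and 9.57 CPM, against 144 and 94.6 CPM.

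Of 19 such genes tested in cells with Esm1, 5 were higher and 1 lower than in cells without, with a median of 0.061 against -0.0032 over all genes, of which 1.77% were higher and 1.52% lower. The mural cell recruitment factor Pdgfb was at 243 and 219 CPM in cells with Esm1, against 123 and 161 CPM in cells without (0.56 ± 0.10). The Notch ligand Dll4 (0.38 ± 0.09) and the transcription factor Hlx (0.55 ± 0.13) were higher, and Igfbp3 lower (-0.31 ± 0.06). The other 2 of the 5, named after their values were seen, were Apln, which encodes the peptide apelin (19.5 and 19.4 CPM against 6.67 and 3.57 CPM, 2.28 ± 0.35), and Angpt2 (14.0 and 15.3 CPM against 4.0 and 7.32 CPM, 1.13 ± 0.33). These calls depended on the fit. In DESeq2 none of the 6 passed (4 genes of the list had an unadjusted p under 0.05, and Apln and Angpt2 got no adjusted p). By edgeR, Apln alone passed without the library block (adjusted p = 0.039) and with thinned cells, and Dll4 alone with equal numbers of cells, where Apln was not tested.

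**Figure D5:**
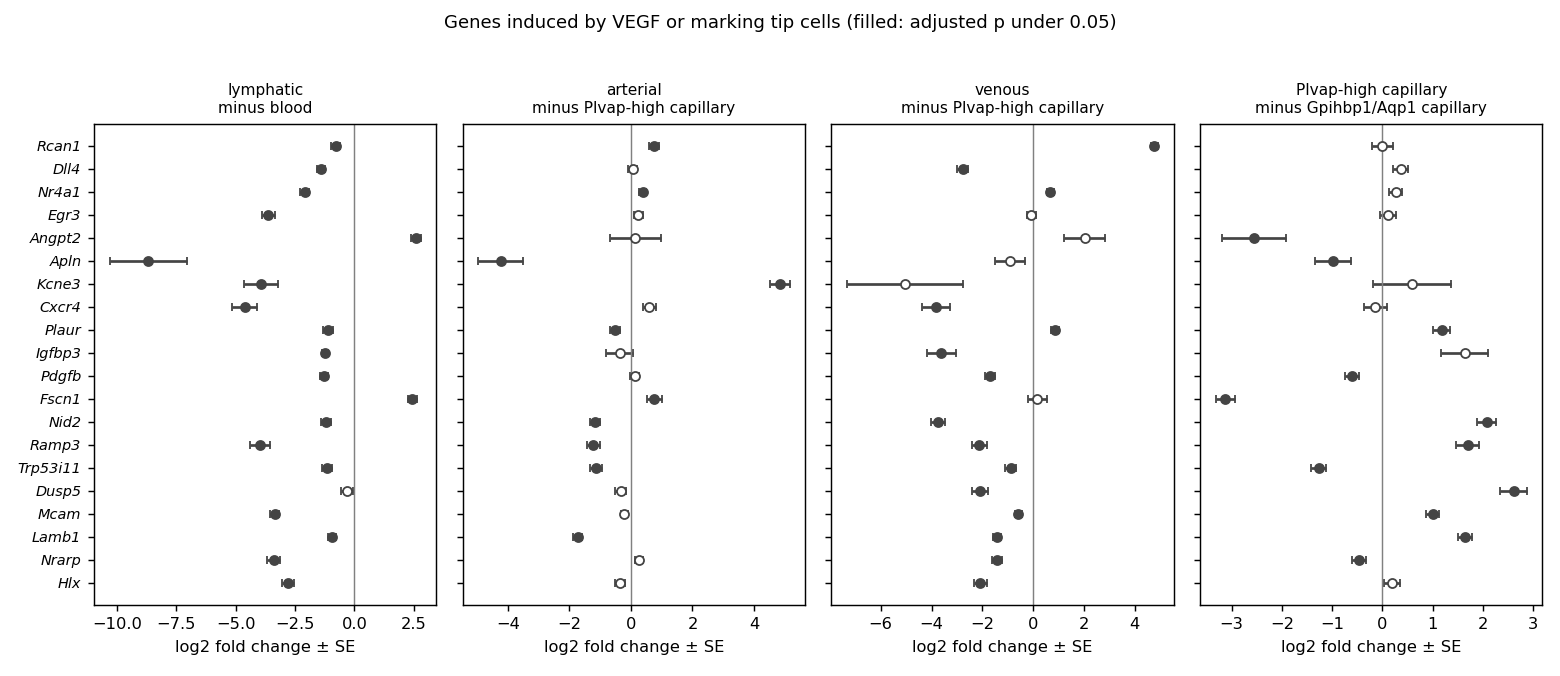
Fitted log2 fold change with its standard error (bars) of 20 genes that VEGF induces or that mark tip cells, in 4 comparisons, where a filled point has an adjusted p under 0.05 and the horizontal scale differs between panels. In lymphatic cells 17 of 20 are lower, and in venous cells Rcan1 lies apart at 4.78.

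Other ligands and factors that hold or process ligand were counted next. In lymphatic cells 4 of 7 tested were higher than in blood cells and 2 lower, where 22.3% of all genes were higher and 25% lower. Vegfb, another ligand of Flt1, was at 35.4 and 30.1 CPM in lymphatic cells, against 11.1 and 9.60 CPM in blood cells (1.55 ± 0.26). The protease Adamts1, which can bind VEGF-A, was lower (-3.65 ± 0.17), as was perlecan, Hspg2, a heparan sulfate proteoglycan of the basement membrane (-2.04 ± 0.16). In Plvap-high against Gpihbp1/Aqp1 capillary cells, 2 of 8 were higher and 2 lower (11.7 and 10.4% of all genes), among them Thbs1, an inhibitor of angiogenesis, at 357 and 340 CPM against 128 and 92.6 CPM (1.87 ± 0.18).

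Of 21 receptor partners tested, 6 were higher and 10 lower in lymphatic than in blood cells, where 22.3% of all genes were higher and 25% lower. Ptprb, the phosphatase VE-PTP, was at 228 and 245 CPM in lymphatic cells, against 1954 and 1409 CPM in blood cells (-2.82 ± 0.14), and the integrin subunit Itgav at 205 and 134 CPM, against 16.2 and 14.0 CPM (3.27 ± 0.19). In venous against Plvap-high capillary cells the 21 were evenly split, with 4 higher and 4 lower (11.8 and 9.57% of all genes). Among the lower was Efnb2, which takes part in VEGF receptor uptake (47.8 and 90.1 CPM in venous cells against 291 and 296 CPM, -1.76 ± 0.17). The netrin receptor Unc5b was another (3.18 and 25.1 CPM against 171 and 161 CPM, -2.85 ± 0.23). Efnb2 also served as an arterial marker of the class check.

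Of 34 genes of receptor signal transduction, 8 were higher and 8 lower in lymphatic than in blood cells, with a median of 0.0056. This share was near that of all genes, of which 47.4% passed, and DESeq2 called 10 in place of 16. The endothelial nitric oxide synthase Nos3 was at 27.6 and 39.2 CPM in lymphatic cells, against 168 and 204 CPM in blood cells (-2.52 ± 0.21). Nos3 was also lower in cells with Esm1 (69.8 and 138 CPM against 151 and 192 CPM, -0.55 ± 0.11), a call lost in DESeq2 (adjusted p = 0.56), without the library block and with thinned cells (adjusted p = 0.072 by edgeR). In arterial against Plvap-high capillary cells 2 of 34 were higher and 1 lower, where 7.17% of all genes were higher and 4.56% lower.

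Of 14 genes of the hypoxia control of Vegfa, 4 were higher and 6 lower in lymphatic than in blood cells, where 22.3% of all genes were higher and 25% lower. Epas1, which encodes the oxygen-regulated factor HIF-2 alpha, was at 118 and 211 CPM in lymphatic cells, against 1181 and 1163 CPM in blood cells (-2.80 ± 0.15). In arterial cells Epas1 was higher than in Plvap-high capillary cells (1705 and 1699 CPM against 1091 and 1020.1 CPM, 0.66 ± 0.12). Slc2a1, the glucose transporter GLUT1, was at 66.2 and 70.3 CPM in Plvap-high capillary cells, against 15.3 and 20.1 CPM in Gpihbp1/Aqp1 capillary cells (1.98 ± 0.20).

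Likeness across classes was described by Pearson's r of log2(CPM + 1) over the 10 values of 5 classes in 2 libraries, which share libraries and depth and are not independent. Among the family, Flt1 and Nrp1 were most alike (r = 0.99), followed by Pgf and Flt4 (r = 0.90), and Flt1 and Nrp2 ran most opposite (r = -0.85). Among 4568 other genes of at least 50 CPM in their highest class, the most like Pgf was Tppp3 (0.99), the most like Flt4 was Cops9 (0.99), and the most like Vegfc was Atp2a3 (0.96). The most like Flt1 was Spata13 (0.99), Nrp1 Tcim (0.99), Kdr Gnas (0.97), Esm1 Rnaset2a (0.97), Nrp2 C77080 (0.98) and Vegfa Plat (0.96).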

How the data were processed

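Single cells of 2 ileum libraries were measured with Chromium 3′ v3 chemistry. The authors deposited raw UMI counts per gene and cell, made with bcl2fastq 2.2 and Cell Ranger 3.1.0 on mm10, per the submitters' processing notes; the sources used here do not name the annotation. From these counts, those barcodes were used that held 500 or more genes and a mitochondrial share of UMIs no greater than 15%, and class members were found by the UMI gates of the report. Cells that met both the lymphatic and the blood gate (3 and 82) were left out, no doublet caller was run, and the genes of the sort and of the gates were not tested.

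Counts were summed by class and library, and the sums, not the cells, were tested with edgeR 4.0.16 in R 4.3.3 (filterByExpr with a minimum count of 10, TMM scaling, quasi-likelihood test, Benjamini-Hochberg adjusted p under 0.05 over all genes tested). Fitted differences are therefore scaled by TMM and can depart from ratios of CPM. The library was a block, because all classes of a library were prepared together. The fits had 1 residual degree of freedom for the comparisons of 2 classes and 4 for that of 5. In the fit of 5 classes the spread was also taken largely from all genes, with a median of 40.3 prior degrees of freedom. The code was tested on simulated data. Alternatives used DESeq2 1.42.0, other scalings, filters, gates and thinning. In the thinned fits cells were classed anew from the thinned counts, while the thinned shares and strata kept the classes of the main fits. Depth was 3806199 and 26645476 UMIs, so library 2 gives the narrower counting intervals. Intervals are exact Poisson or Clopper-Pearson at 95% and cover counting error only, as does the limit of 3 counts for a count of 0.

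The members and the lists were chosen with earlier results of these data known. Genes named from a list were, for each comparison, up to 4 past the test that reached 20 CPM in each library for the class with more, by size of log2 fold change, and exceptions are marked. Likeness used genes of at least 50 CPM in their highest class. Tables were read with pandas 2.3.3, numpy 2.4.6 and scipy 1.17.1, and plots made with matplotlib 3.10.9. Promoters are from RefSeq, where 7 of the 9 genes had a window of bases upstream of their exons.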

Additional observations from a re-analysis of the deposited data

How the results depend on the processing

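Of the 97 counts of family genes called under alternative settings, 91 stayed within 1.5 times the reported count. Without the replicate block, 3 genes of the family passed between Plvap-high and Gpihbp1/Aqp1 capillary cells in place of 6, and 0 between cells with and without Esm1 in place of 4. With DESeq2, 5 passed between arterial and venous cells in place of 8, and 2 between cells with and without Esm1, as they did with thinned cells (2) and with equal numbers of cells (2). The counts over all genes were less stable. With DESeq2 they were 2338 in place of 5189 for lymphatic against blood cells, 505 in place of 1244 for arterial against Plvap-high and 789 in place of 1579 for arterial against Gpihbp1/Aqp1 capillary cells, 1333 in place of 2269 and 1674 in place of 2704 for venous against these kinds, 1220 in place of 2350 between the kinds, 1234 in place of 2159 for arterial against venous cells and 27 in place of 324 for cells with and without Esm1. Without the block they were 597, 850 and 1448 for arterial against Plvap-high, arterial against Gpihbp1/Aqp1 and venous against Plvap-high capillary cells, 1337 between the capillary kinds, 1412 for arterial against venous cells and 18 for Esm1 (343 at an unadjusted p under 0.05). With thinned cells they were 624 and 952 for arterial cells against the kinds, 1363 between the kinds, 1364 for arterial against venous cells and 54 for Esm1. With equal numbers of cells they were 2837 for lymphatic against blood cells, 687 and 927 for arterial cells against the kinds, 1795 for venous against Gpihbp1/Aqp1 capillary cells, 1462 between the kinds, 1407 for arterial against venous cells and 101 for Esm1. Of the 70 gene results with a test, which leave out the steps between lymphatic cells and single blood classes, 50 passed; 30 of these passed under every alternative and 20 were lost under at least 1, while 10 of the 20 that did not pass did so under at least 1. Of the 7 such steps with lymphatic cells that passed, 5 passed under every alternative, and those of Kdr and Vegfc were lost under 5 and 1 of 12. The one that turned its sign was Pgf in arterial against Plvap-high capillary cells, at -2.98 with thinned cells (adjusted p = 0.71 by edgeR) in place of 1.75. DESeq2 gave no adjusted p for 2 results, Vegfa and Vegfc in cells with Esm1. In each library alone, with log2(CPM + 1) and no test, every result that passed kept its direction. Without any scaling the median of all genes moved to between -0.27 (venous against Gpihbp1/Aqp1 capillary cells) and 0.24 (lymphatic against venous cells). The split of calls then became 2800 higher and 2416 lower for lymphatic against blood cells (scaled, 2445 and 2744), 2744 and 1781 for lymphatic against venous cells (1897 and 2231), 912 higher and 1560 lower between the capillary kinds (1242 and 1108), 1079 and 2085 for venous against Gpihbp1/Aqp1 capillary cells (1520.0 and 1184), 1043 and 1386 for venous against Plvap-high capillary cells (1254 and 1015), 742 and 851 for arterial against Gpihbp1/Aqp1 capillary cells (924 and 655) and 1406 and 871 for arterial against venous cells (1011 and 1148). The cause of these changes was not tested. The fit of the 4 blood classes and the arterial gate of 6 UMIs were chosen after seeing the data. Depth limits Pgf, Vegfa and Vegfc, and the venous and lymphatic classes of library 1, with 64 and 78 cells.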

Other observations

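The cells that met no gate, 201 in library 1 and 716 in library 2, carried the family at intermediate levels. Flt1 was at 2281 and 1589 CPM in them, Kdr at 1026 and 695 CPM, Nrp1 at 901 and 708 CPM and Esm1 at 58.0 and 25.4 CPM. They were shallow, with medians of 2055 and 2361 UMIs. In library 2 their leukocyte markers summed to 30250 CPM and their epithelial markers to 8933 CPM, against 183 and 26.8 CPM in library 1, so these cells are not of 1 kind and were compared with nothing.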
